A study of Mus musculus with 16 samples.

Results

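The ELAV, RBFOX and NOVA families hold 9 genes in the mouse, Elavl1, Elavl2, Elavl3, Elavl4, Rbfox1, Rbfox2, Rbfox3, Nova1 and Nova2. They were found on the arrays by the RefSeq accession of each probe, which gave 17 probes, and all 9 genes were among the 21070 features tested. ELAV proteins (also called Hu proteins) bind U-rich and AU-rich stretches of RNA, mostly in untranslated regions and introns, and raise the stability or translation of their targets. RBFOX proteins bind the word GCAUG and NOVA proteins bind clusters of short words around CA, and both families include or skip exons according to where they bind. Elavl1, Rbfox1 and Rbfox2 are also made outside the nervous system, whereas the other members are largely neuronal. The protein of Rbfox3 is the NeuN antigen, which antibodies detect in most mature neurons but classically not in mitral cells of the olfactory bulb.

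The samples were hand-picked mitral cells, which carry olfactory bulb output to the cortex, from ICR mice at postnatal day 3 (P3) or 6 (P6). Every group had received plasmid by in utero electroporation at embryonic day 12. Control cells carried pCAG-EYFP alone, and Kir2.1 cells carried pCAG-EYFP with pCAG-Kir2.1, which adds a potassium channel that holds neurons near rest. The CAG promoter is active in most cell types, so cell identity rested on picking and on a PCR for Pcdh21 (Cdhr1) and EYFP after 30 cycles of amplification. No other genotype was given, and cDNA of 10 cells was pooled on each array. According to the labels the pools are biological replicates, but the number of animals is not given, so the p-values measure the spread between pools, which may be technical in part.

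There were 4 arrays in each of the 4 groups. Between 34.3% and 41.1% of the probes of an array were well above background. All P3 arrays lay on slide 1 and all P6 arrays on slide 2, and the effects of age and slide therefore cannot be told apart. Within a slide, controls lay in row 1 and Kir2.1 pools in row 2, so row and treatment cannot be told apart either. In RNA pooled from several cells, fewer cells of a type and less RNA per cell cannot be told apart. Cdhr1 was above background on all 16 arrays, with group means of 3.31 ± 0.33 at P3 and 3.08 ± 0.33 at P6 in control cells, and of 2.75 ± 0.43 and 3.75 ± 0.25 in Kir2.1 cells (SD, n = 4). Since the PCR on the cells was for this gene, its presence is no separate check of cell identity. Values are log2 signals, where 0 is the 75th percentile of the probes measured on every array. Brightness differs between probes for reasons other than RNA amount, so levels were compared between arrays and not between genes. A gene was called at an adjusted p under 0.05 from limma.

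On the RefSeq annotation of GRCm38.p6, the members lie on 8 chromosomes. The ELAV genes are Elavl1 at chr8:4284781-4325140, Elavl2 at chr4:91211533-91400108, Elavl3 at chr9:22015005-22052146 and Elavl4 at chr4:110203737-110351939. The RBFOX genes are Rbfox1 at chr16:5884793-7412480, Rbfox2 at chr15:77078990-77308434 and Rbfox3 at chr11:118489760-118911597. Rbfox1 spans 1527688 bases. The NOVA genes are Nova1 at chr12:46697895-46819480 and Nova2 at chr7:18925888-18965319. The 250 bases before the transcription start are shown for Elavl2 (chr4:91399985-91400234), Elavl3 (chr9:22052024-22052273) and Rbfox3 (chr11:118761042-118761291), because these are the members called in at least 1 comparison. All 3 lie on the minus strand and are written in the direction of transcription, from RefSeq on GRCm38.p6, with CpG in capitals. Starts are those of the promoter table, whose Elavl2 and Elavl3 windows reach into the gene spans above and whose Rbfox3 window lies inside the gene. For Elavl2, which has 6 annotated promoters, the outermost is shown.
Elavl2: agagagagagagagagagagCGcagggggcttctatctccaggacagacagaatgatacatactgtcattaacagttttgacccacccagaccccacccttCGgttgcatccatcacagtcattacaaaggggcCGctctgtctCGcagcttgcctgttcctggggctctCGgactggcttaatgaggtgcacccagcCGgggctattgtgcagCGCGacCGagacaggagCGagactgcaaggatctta
Elavl3: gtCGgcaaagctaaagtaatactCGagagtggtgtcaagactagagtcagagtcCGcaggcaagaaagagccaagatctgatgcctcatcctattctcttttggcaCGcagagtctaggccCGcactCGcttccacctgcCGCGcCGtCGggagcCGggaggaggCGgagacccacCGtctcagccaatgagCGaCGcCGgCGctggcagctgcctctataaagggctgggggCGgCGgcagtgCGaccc
Rbfox3: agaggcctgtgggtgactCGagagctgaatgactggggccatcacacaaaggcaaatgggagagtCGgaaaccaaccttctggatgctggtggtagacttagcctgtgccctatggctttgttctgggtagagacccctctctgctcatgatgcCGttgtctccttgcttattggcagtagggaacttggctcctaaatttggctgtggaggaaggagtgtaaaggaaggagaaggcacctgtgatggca

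The 3 windows differed in CpG content. The Elavl3 window held 20 CpG (61.6% G or C), and 17.9% of 32851 RefSeq promoters held at least as many. The Elavl2 window held 10 CpG (55.6% G or C), reached by 37.8% of promoters. The Rbfox3 window held 3 CpG (52.8% G or C), reached by 71.0% of promoters, where the median promoter held 6. Sequence was given for 17 promoters of 8 members, Rbfox2 having no entry in the table. On either strand, TGACGTCA, the full cAMP response element, was found in 0 of the 17 and in 1.55% of all promoters. The shorter word TGACG, which lies within the full element, was found in 3 of 17, all of Elavl4, against 17.8% of all promoters. GGGCGG, the GC box, was found in 7 of 17, of Elavl2, Elavl3 and Nova2, against 32.7%. Several windows of Elavl2 and of Elavl4 overlap each other, so the same site was counted more than once.

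**Figure D1:**
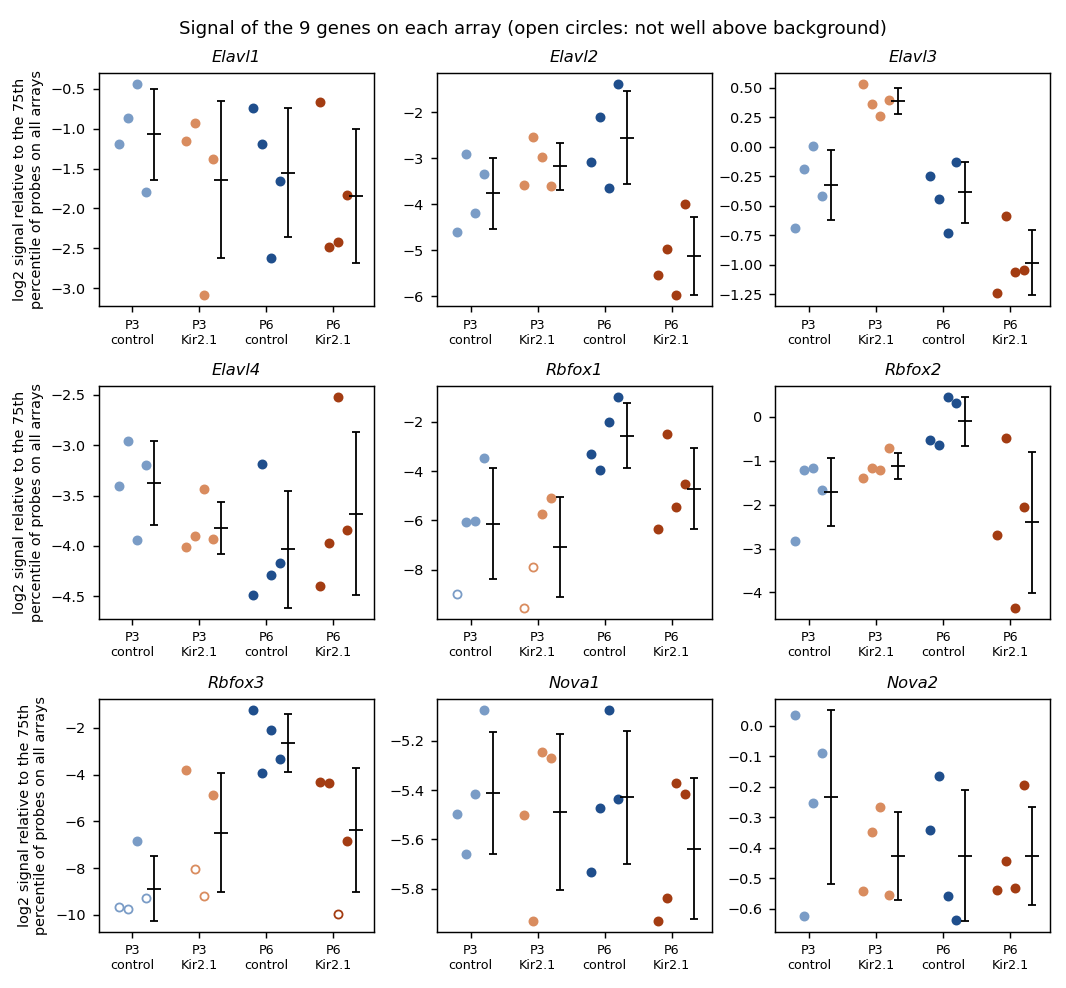
Log2 signal of the tested probe of each of the 9 genes on every array, by group, where 0 is the 75th percentile of the probes above background on all 16 arrays; points are pools, open where the probe was not well above background, and bars are the mean and SD of 4 pools. Elavl2 and Rbfox3 have P6 Kir2.1 pools that all lie below the P6 control pools, whereas the pools of Nova1 stay between -5.93 and -5.07.

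Among the ELAV genes, Elavl2 fell with Kir2.1 at P6 and Elavl3 was lower at P6 than at P3 in Kir2.1 cells, whereas Elavl1 and Elavl4 were called in no comparison. Elavl2 encodes HuB, a neuronal ELAV protein made early in neuronal differentiation. Its signal was -4.61, -2.91, -4.19 and -3.34 in the P3 control pools and -3.58, -2.55, -2.96 and -3.61 in the P3 Kir2.1 pools. At P6 it was -3.08, -2.11, -3.65 and -1.38 in control and -5.54, -4.98, -5.98 and -3.99 in Kir2.1 pools. The groups interleaved at P3, and at P6 every Kir2.1 pool lay below every control pool. From -2.56 ± 1.01 in control to -5.12 ± 0.86 in Kir2.1 cells at P6 (SD, n = 4), Elavl2 fell by 2.57 on the log2 scale (SE 0.56, 95% interval -3.77 to -1.37, adjusted p = 0.0371, limma), to 0.169 of the control signal. At P3 the difference was 0.59 (adjusted p = 0.918). From P3 to P6 it was 1.21 in control cells (adjusted p = 0.277) and -1.95 in Kir2.1 cells (adjusted p = 0.123), where the groups did not overlap. The second Elavl2 probe was above background on 3 of 16 arrays, too few to be tested for the gene, and differed by -1.59 with Kir2.1 at P6.

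The Elavl2 call at P6 depended on single pools, and its size was -1.72 after normexp background correction (adjusted p = 0.0233). Leaving out P3 control pool 3 (adjusted p = 0.0515) or 4 (0.0528) ended it, as did leaving out P6 control pool 2 (0.0656) or 4 (0.0903), or P6 Kir2.1 pool 1 (0.0868), 2 (0.0666) or 3 (0.0754).

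Elavl3 encodes HuC, a neuronal ELAV protein that persists in mature neurons. Its signal was -0.69, -0.19, 0.00 and -0.42 in P3 control pools and 0.53, 0.36, 0.26 and 0.39 in P3 Kir2.1 pools. The P6 values were -0.25, -0.44, -0.73 and -0.13 in control and -1.24, -0.59, -1.06 and -1.04 in Kir2.1 pools. All P3 Kir2.1 pools lay above all P3 control pools, and at P6 the lowest control pool lay below the highest Kir2.1 pool. In Kir2.1 cells, Elavl3 fell by 1.37 from P3 (0.39 ± 0.11) to P6 (-0.98 ± 0.28; SE 0.23, 95% interval -1.86 to -0.88, adjusted p = 0.0197), to 0.388 of its P3 signal. In control cells the age difference was -0.06 (-0.32 ± 0.30 to -0.39 ± 0.26, adjusted p = 0.916). The difference with Kir2.1 was 0.71 at P3 (SE 0.23, 95% interval 0.22 to 1.2, adjusted p = 0.561) and -0.59 at P6 (SE 0.23, 95% interval -1.08 to -0.11, adjusted p = 0.196). The call with age in Kir2.1 cells ended without P3 Kir2.1 pool 4 (adjusted p = 0.0538) or P6 Kir2.1 pool 1 (0.0525).

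Elavl1 encodes HuR, the family member made in nearly all cells. Its signal was -1.19, -0.87, -0.44 and -1.79 in P3 control and -1.15, -0.93, -3.09 and -1.39 in P3 Kir2.1 pools, and -0.74, -1.19, -2.62 and -1.65 in P6 control and -0.67, -2.48, -2.42 and -1.83 in P6 Kir2.1 pools. The 4 groups overlapped. The difference with Kir2.1 was -0.57 at P3 (95% interval -1.77 to 0.64, adjusted p = 0.922) and -0.30 at P6 (adjusted p = 0.833). A second Elavl1 probe, above background on 10 arrays, gave -1.84 at P6 (adjusted p = 0.638).

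Elavl4 encodes HuD, a neuronal ELAV protein known for stabilising Gap43 RNA in growing axons. Its signal was -3.41, -2.95, -3.94 and -3.20 in P3 control and -4.01, -3.90, -3.44 and -3.93 in P3 Kir2.1 pools. The P6 values were -4.49, -3.18, -4.29 and -4.17 in control and -4.39, -3.97, -2.52 and -3.85 in Kir2.1 pools. The groups overlapped at both ages. Its 2 probes went in opposite directions with Kir2.1 at P6, the tested one by 0.35 (adjusted p = 0.693) and the other by -0.93, and neither was called. With Kir2.1 at P3 the differences were -0.44 (adjusted p = 0.915) and -1.23.

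Among the RBFOX genes, Rbfox3 rose from P3 to P6 in control cells, and all 3 genes had lower mean signals with Kir2.1 at P6 without passing the threshold. The Rbfox3 signal was -9.67, -9.73, -6.82 and -9.30 in P3 control pools, of which 1, pool 3, was above background. In P3 Kir2.1 pools it was -3.81, -8.04, -9.21 and -4.88, with pools 1 and 4 above background. At P6 it was -1.22, -3.95, -2.08 and -3.34 in control, all above background, and -4.32, -4.36, -9.96 and -6.84 in Kir2.1 pools, 3 of them above background. All P6 control pools lay above all P3 control pools and above all P6 Kir2.1 pools. In control cells Rbfox3 rose by 6.23 (SE 1.38, 95% interval 3.27 to 9.20, adjusted p = 0.0325), from -8.88 ± 1.39 to -2.65 ± 1.23, where the P3 side was above background on 1 of 4 arrays. The size rests on those dim signals, and after normexp background correction the rise was 2.47 (adjusted p = 0.01). In Kir2.1 cells the age difference was 0.11 (-6.48 ± 2.55 to -6.37 ± 2.67, adjusted p = 0.98). With Kir2.1 the difference was 2.40 at P3 (adjusted p = 0.833) and -3.72 at P6 (SE 1.38, 95% interval -6.69 to -0.76, adjusted p = 0.181).

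The other Rbfox3 probes had the same signs and were not called. For the age difference in control cells they gave 5.52 (adjusted p = 0.122) and 4.16 (adjusted p = 0.275), and with Kir2.1 at P6 they gave -4.0 (adjusted p = 0.267) and -2.47 (adjusted p = 0.537). They were above background on 8 and 5 of the 16 arrays, against 10 for the tested probe. The Rbfox3 call with age was lost on leaving out P3 control pool 1 (adjusted p = 0.0909), 2 (0.0801) or 4 (0.0826), or P6 control pool 1 (0.0788), 3 (0.0618) or 4 (0.0604).

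Rbfox1 encodes a splicing factor of neurons, heart and muscle. Its signal was -8.97, -6.07, -6.02 and -3.47 in P3 control and -9.57, -7.87, -5.75 and -5.10 in P3 Kir2.1 pools. At P6 it was -3.31, -3.94, -2.02 and -0.97 in control and -6.35, -2.49, -5.45 and -4.54 in Kir2.1 pools. It was above background on every P6 array, and not on P3 control pool 1 or P3 Kir2.1 pools 1 and 2. The age difference was 3.57 in control cells (SE 1.24, adjusted p = 0.146), with 1 P3 pool inside the P6 range, and 2.37 in Kir2.1 cells (adjusted p = 0.395). With Kir2.1 it was -0.94 at P3 (adjusted p = 0.943) and -2.15 at P6 (adjusted p = 0.392). A second Rbfox1 probe was above background on 0 of 8 P3 arrays and on 3 of 4 in each P6 group, so its age difference in control cells (3.83, adjusted p = 0.155) is against background. It gave -1.79 with Kir2.1 at P6.

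Rbfox2 encodes the broadly made RBFOX protein. Its signal was -2.84, -1.21, -1.16 and -1.66 in P3 control and -1.40, -1.17, -1.20 and -0.71 in P3 Kir2.1 pools. At P6 it was -0.53, -0.63, 0.44 and 0.32 in control and -2.70, -0.48, -4.36 and -2.04 in Kir2.1 pools. The P6 Kir2.1 signal was under the control range in 3 pools and within it in pool 2. The difference with Kir2.1 at P6 was -2.30 (SE 0.65, 95% interval -3.69 to -0.90, adjusted p = 0.0855), and at P3 it was 0.59 (adjusted p = 0.928). With age it was 1.62 in control cells (SE 0.65, adjusted p = 0.206), where the groups did not overlap, and -1.27 in Kir2.1 cells (adjusted p = 0.379). The second Rbfox2 probe, designed on another RefSeq transcript, gave -0.34 with Kir2.1 at P6 (adjusted p = 0.778) and -0.09 with age in control cells. At P3 it gave -0.19 with Kir2.1, so the 2 probes disagreed in size at P6, and in sign at P3 and with age in control cells. Without P6 Kir2.1 pool 2, the tested probe passed at P6 (-2.94, adjusted p = 0.0276).

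Neither NOVA gene was called in any comparison, and their tested probes varied least among the members. Nova2 encodes the NOVA protein that predominates in the forebrain. Its signal was 0.03, -0.62, -0.26 and -0.09 in P3 control and -0.54, -0.35, -0.27 and -0.56 in P3 Kir2.1 pools. The P6 values were -0.34, -0.16, -0.56 and -0.64 in control and -0.54, -0.45, -0.53 and -0.20 in Kir2.1 pools. The groups overlapped, and the SD over all 16 arrays was 0.206. The difference with Kir2.1 at P6 was 0.00 (95% interval -0.45 to 0.45, adjusted p = 0.998), and at P3 it was -0.20 (adjusted p = 0.925).

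Nova1, known best from the hindbrain and spinal cord, lay between -5.66 and -5.07 in P3 control, -5.93 and -5.25 in P3 Kir2.1, -5.73 and -5.08 in P6 control and -5.93 and -5.37 in P6 Kir2.1 pools. All 16 arrays were above background and the groups overlapped. The differences with Kir2.1 were -0.08 at P3 (adjusted p = 0.983) and -0.21 at P6 (95% interval -0.73 to 0.31, adjusted p = 0.699). A second Nova1 probe was above background on 3 arrays, all of P6 control pools, and gave 2.63 with age in control cells (adjusted p = 0.137) and -2.74 with Kir2.1 at P6 (adjusted p = 0.13). The steady signal of Nova1 therefore holds for its tested probe alone.

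**Figure D2:**
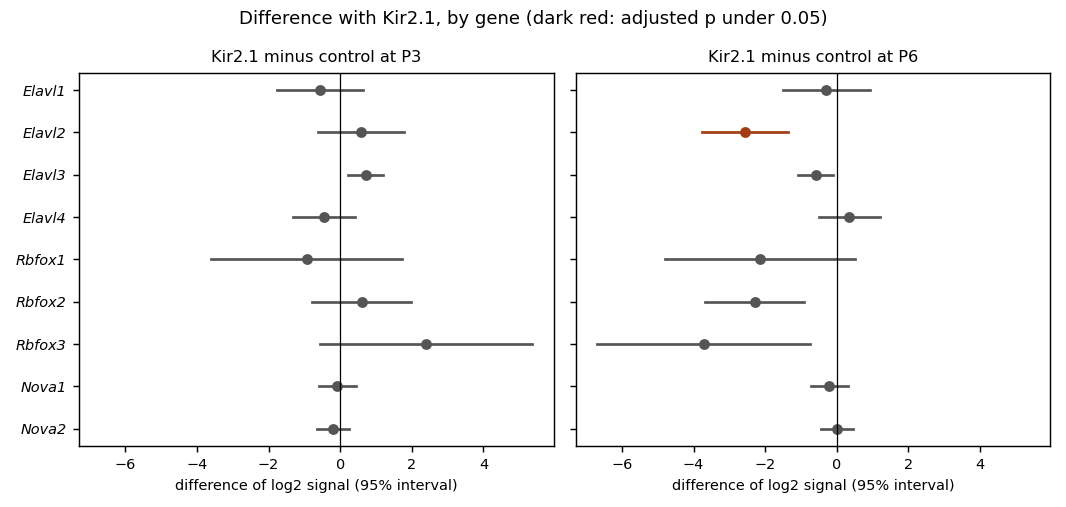
Difference of log2 signal between Kir2.1 and control cells at P3 (left) and P6 (right) for the tested probe of each gene, with 95% intervals from limma and 4 pools per group; dark red marks an adjusted p under 0.05. Elavl2 at P6 (-2.57) is the 1 difference past the threshold. The intervals of Elavl3, Rbfox2 and Rbfox3 at P6 also lie below 0, and that of Elavl3 at P3 lies above 0.

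With Kir2.1 at P6, 1 of the 9 genes was called (Elavl2, lower), where 1.76% of all features were called and 0.892% were called lower. The signal was lower for 8 of 9, with a median difference of -0.59 against -0.13 over all features, and the median over all features moved to 0.09 when arrays were scaled over all probes. Under the other scalings and background correction tried, 6 or 7 of the 9 were lower. An unadjusted p under 0.05 was reached by 4 genes, Elavl2, Elavl3, Rbfox2 and Rbfox3, where 17.5% of features reached it. Groups did not overlap for 2 genes, Elavl2 and Rbfox3, where 8.89% of features did not.

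With Kir2.1 at P3, 0 of 9 genes were called by limma, where 0.00949% of features were. An unadjusted p under 0.05 was reached by Elavl3, where 6.53% of features reached it, and Elavl3 was also the 1 gene whose groups did not overlap, where 6.8% of features did not. The median difference was -0.08 against -0.03 over all features. For the mean over both ages, 0 of 9 were called, where 0.712% of features were, and Elavl2 had the 1 unadjusted p under 0.05 (-0.99, adjusted p = 0.294, limma), which 13.5% of features reached.

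With age in control cells, 1 of 9 genes was called (Rbfox3, higher), where 2.59% of features were called and 1.33% were called higher. Groups did not overlap for Rbfox2 and Rbfox3, both higher at P6, where 12.7% of features did not overlap. With age in Kir2.1 cells, 1 of 9 was called (Elavl3, lower), where 0.878% of features were called and 0.475% were called lower. Groups did not overlap for Elavl2 and Elavl3, both lower at P6, where 10.5% of features did not overlap. The age comparisons share no arrays with each other, but each shares arrays with the Kir2.1 comparisons.

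Whether Kir2.1 acted differently at the 2 ages was tested by the interaction of age and Kir2.1. By limma 0 of 9 genes passed, where 0.0902% of features did, and 4 had an unadjusted p under 0.05, where 10.7% of features did. For Elavl3 the difference at P6 minus that at P3 was -1.30 (SE 0.32, adjusted p = 0.14). For Elavl2 it was -3.16 (SE 0.79, adjusted p = 0.148). The values were -2.89 for Rbfox2 (SE 0.92, adjusted p = 0.253) and -6.12 for Rbfox3 (SE 1.95, adjusted p = 0.256). A difference between the ages in the response to Kir2.1 was therefore not shown for any member.

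**Figure D3:**
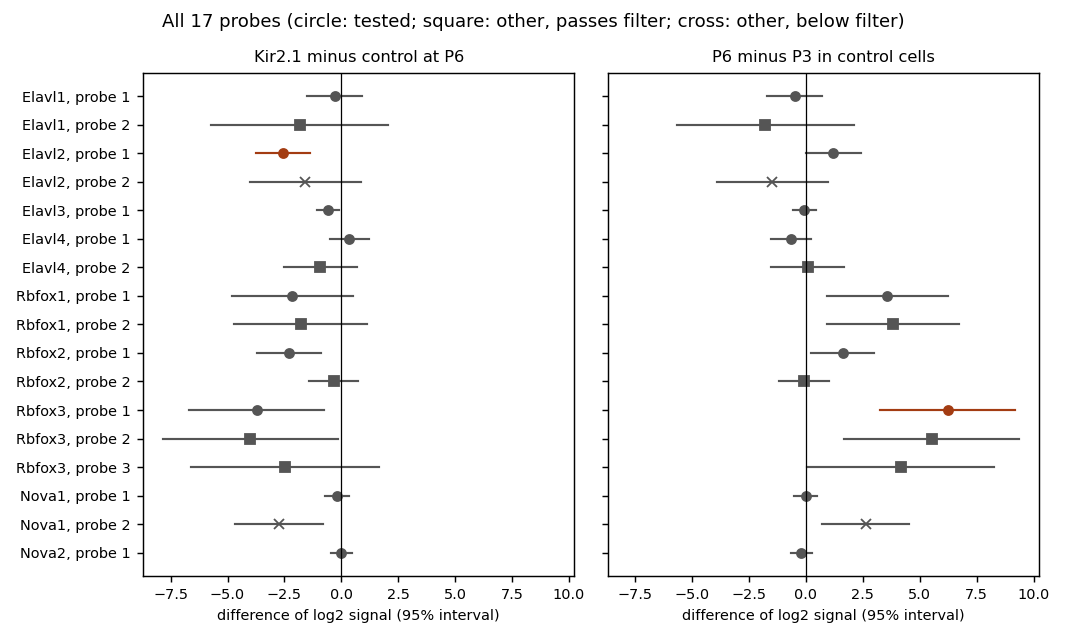
Difference of log2 signal for all 17 probes of the 9 genes with Kir2.1 at P6 (left) and with age in control cells (right). The tested probe of a gene is set apart from its other probes. The 3 Rbfox3 probes lie on 1 side in control cells with age (4.16 to 6.23) and with Kir2.1 at P6 (-4.0 to -2.47), whereas the 2 Elavl4 probes lie on opposite sides of 0 with Kir2.1 at P6.

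Markers of several other cell types, though not of all, moved in the comparisons in which Rbfox3 and Elavl2 were called. Of 23 olfactory bulb interneuron markers 17 were tested. With age in control cells 15 were higher, and 4 of them rose past the threshold, where 1.33% of features were called higher. These were Gad1 and Gad2 (enzymes of GABA synthesis), Meis2 (a transcription factor) and Synpr (a synaptic vesicle protein). With Kir2.1 at P6, 15 of 17 were lower, the median difference was -2.13, and 1, Penk (proenkephalin), fell past the threshold (-6.32, adjusted p = 0.0269). Of all features, 0.892% were called lower there. An unadjusted p under 0.05 was reached by 9 of the 17, all lower, where 17.5% of features reached it. The summed interneuron signal ranged from 1.40 to 2.24 in P3 control, 1.24 to 1.95 in P3 Kir2.1, 2.87 to 3.74 in P6 control and 1.33 to 3.75 in P6 Kir2.1 pools. Gad1 was above background in 1 of 4 P3 control pools, 3 of 4 P3 Kir2.1 pools, all P6 control pools and 3 of 4 P6 Kir2.1 pools. Calb1 and Vip were not above background on any array. The mean of the 17 log2 signals ranged from -3.10 to -1.86 in P6 control and from -5.63 to -3.84 in P6 Kir2.1 pools. P6 Kir2.1 pool 3, which had the highest sum, had a mean of -4.57 with 11 of 17 markers above background.

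Of 12 astrocyte and radial glia markers 10 were tested, and with age in control cells all 10 were higher. Fabp7 (a fatty acid-binding protein) was called, where 1.33% of features were called higher. With Kir2.1 at P6, 8 of the 10 were lower and 0 were called, also at an unadjusted p under 0.05, which 17.5% of features reached. Their summed signal ranged from 1.12 to 2.90 in P3 control, 2.16 to 3.55 in P3 Kir2.1, 3.86 to 4.16 in P6 control and 2.88 to 4.5 in P6 Kir2.1 pools. The sum of 16 tested mitral and tufted cell markers (of 18) ranged from 4.38 to 4.93, 4.40 to 4.78, 4.39 to 5.12 and 4.83 to 5.38 in the same order. With Kir2.1 at P6, 11 of these were higher (median 0.61 against -0.13 over all features). Of them 1, Reln (a secreted glycoprotein of mitral cells), rose past the threshold, where 1.76% of features were called. By limma, 7 higher and 1 lower of the 16 had an unadjusted p under 0.05, where 17.5% of features did. The mean of the 16 log2 signals ranged from -2.05 to -1.86 in P6 control and from -1.57 to -0.57 in P6 Kir2.1 pools. With age, Lbhd2 and Thy1 rose past the threshold in both treatments, and Tbx21 and Ntng1 in Kir2.1 cells. Of all features, 2.59% were called with age in control and 0.878% in Kir2.1 cells. Of the 16 tested, 10 were lower with age in control cells (median -0.56 against -0.07 over all features), and 8 were lower in Kir2.1 cells. For the mean of both ages, Reln was called higher and Ntng1 lower with Kir2.1, where 0.712% of features were called. Of 9 neuroblast and progenitor markers tested, 6 were lower with age in control cells, and 5 were higher and 4 lower with Kir2.1 at P6. Dcx fell past the threshold with age in control cells and Igfbpl1 in Kir2.1 cells, against the same 2.59% and 0.878% of features called. Of 5 olfactory ensheathing cell markers tested, all 5 were higher with age in control cells, and 3 were lower with Kir2.1 at P6. The 1 called with age in control cells was Fabp7, which is also on the astrocyte list. The sum of the 5 was 0.64 to 2.73 in P3 control and 3.15 to 3.70 in P6 control pools. Of 6 microglia markers tested, 5 were higher with age in control cells (median 2.68) and 5 lower with Kir2.1 at P6 (median -1.56), with 0 called by limma. With Kir2.1 at P6, 1 of the 6 had an unadjusted p under 0.05, where 17.5% of features did. In that comparison 7 of 11 oligodendrocyte lineage, 4 of 8 vascular and blood cell and 3 of 5 olfactory sensory neuron markers were lower. With age in control cells 9 of the 11, 6 of the 8 and 2 of the 5 were higher. Of these 3 lists 0 were called in either comparison, where 1.76% and 2.59% of features were. Leaving out 1 of the 16 arrays at a time ended the call of Gad1 in 12 cases, of Fabp7 in 9 and of Penk in 6. It ended that of Synpr in 2, of Dcx in 2, of Gad2 in 1 and of Meis2 in 0. The Reln call was lost in 3 cases at P6 and in 0 for the mean of both ages. That of Ntng1 was lost in 13 for the mean of both ages and in 4 with age in Kir2.1 cells. Tbx21 lost its call in 13 cases and Igfbpl1 in 6. For Lbhd2 and Thy1 the cases numbered 7 and 3 in control cells, and 0 and 5 in Kir2.1 cells. Other processing settings ended the calls of Gad1 and Fabp7 in 5 of 10 each, and of Tbx21 in 4 of 10. They ended that of Ntng1 for the mean of both ages in 5 of 9, and those of the other markers in 2 at most. Reln at P6 was 1.08 after normexp (adjusted p = 0.0651), and Penk had an adjusted p of 0.187 with only the 8 P6 arrays (limma). The part of these markers in the differences of the 9 genes was not tested.

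**Figure D4:**
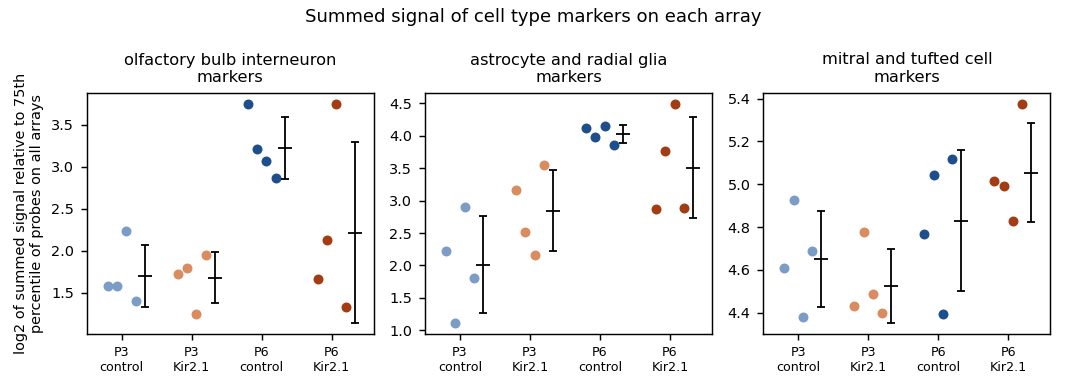
Log2 of the summed signal of interneuron, astrocyte and radial glia, and mitral and tufted cell markers on each array, by group, with mean and SD of 4 pools. The 4 P6 control pools lie above every P3 pool for interneuron markers (2.87 and higher against 2.24 and lower), and P6 Kir2.1 pools spread from 1.33 to 3.75.

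Transcripts known from other work to be bound or spliced by these proteins were followed as a list of 16, of which 14 were tested. The list was chosen with earlier results of these data known, so its counts of directions are a description only. Bdnf and Kcnj6 were not above background on any array. With Kir2.1 at P6 all 14 had lower mean signals under the main scaling and 13 of 14 when scaled over all probes, with a median of -0.62 against -0.13 over all features, and 0 were called by limma, with 3 at an unadjusted p under 0.05, which 17.5% of features reached. These were Snap25, a synaptic SNARE protein (-0.61, adjusted p = 0.114), Ache, acetylcholinesterase (-3.26, adjusted p = 0.123), and Mapt, the microtubule protein tau (-0.62, adjusted p = 0.133). Ache was called after normexp (-1.92, adjusted p = 0.0445) and without P6 control pool 4 (-4.25, adjusted p = 0.0479). With Kir2.1 at P3, 10 of 14 were lower and 0 were called, with 3 at an unadjusted p under 0.05, against 6.53% of features, among them Snap25 in the other direction (0.61, adjusted p = 0.558).

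With age, 1 of the 14 targets was called in each treatment, against 2.59% of features for control and 0.878% for Kir2.1 cells. In control cells Snap25 rose by 1.24 (SE 0.19, adjusted p = 0.00431), from 2.62 ± 0.07 to 3.86 ± 0.23. In Kir2.1 cells Mapt fell by 1.26 (SE 0.20, adjusted p = 0.016), from 3.85 ± 0.14 to 2.59 ± 0.27. The Mapt call was lost under 4 of 10 other settings. These were scaling over all probes (adjusted p = 0.0611), the deposited values (0.064), the replicate number as a block (0.0537) and only the 8 Kir2.1 arrays (0.13). It was also lost without P3 Kir2.1 pool 4 (0.0511). The Snap25 call held on leaving out each of the 16 arrays in turn (adjusted p up to 0.0194), and was lost with only the 8 control arrays (adjusted p = 0.0601). Gap43, the growth-cone protein whose RNA HuD binds, differed by -0.41 in Kir2.1 cells (adjusted p = 0.34). Array signals give the total of a transcript around its probe and not the inclusion of an exon, so splicing by RBFOX or NOVA was not measured.

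**Figure D5:**
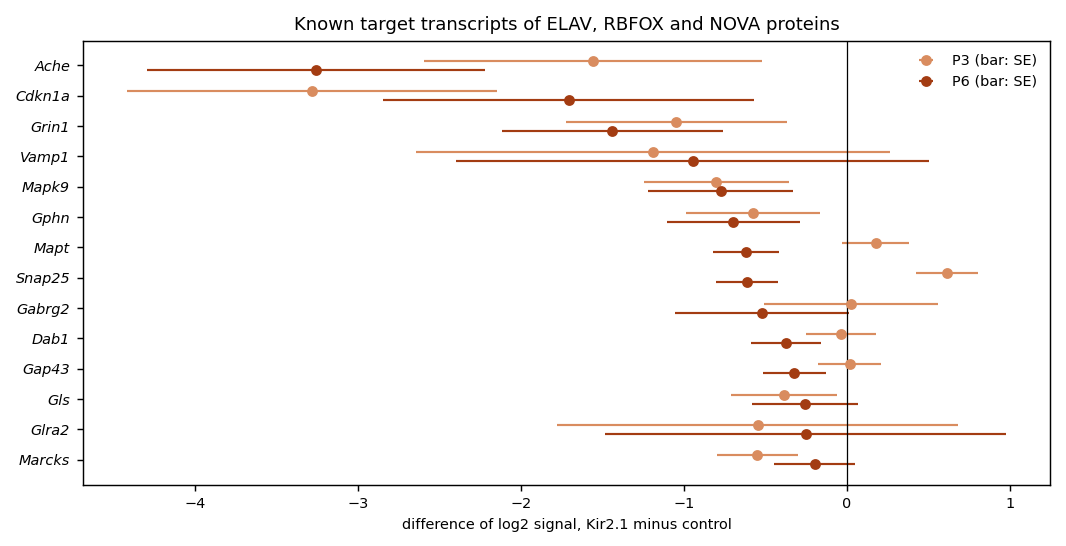
Difference of log2 signal between Kir2.1 and control cells at P3 and P6 for the 14 tested target transcripts, with standard errors from limma. At P6 all 14 points lie below 0 and none passed the threshold, and at P3 the points lie on both sides of 0.

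Other neuronal regulators of splicing and RNA stability were a list of 54 genes, of which 46 were tested. By limma 0 of 46 were called in any of the 6 comparisons, whereas after normexp 2 were called higher with age in control cells, Mbnl2 among them, and 1, Khdrbs2, lower with age in Kir2.1 cells. In the main scaling, with Kir2.1 at P6 an unadjusted p under 0.05 was reached by 1 higher and 3 lower of the 46, where 17.5% of all features reached it. At P6 the lowest p belonged to Celf5, a CELF family splicing factor (-1.58, adjusted p = 0.0879), followed by Rbm5 (-0.66, adjusted p = 0.214) and Rbm4 (1.58, adjusted p = 0.214). At P6, Celf5 was 1.21 ± 0.63 in control pools and -0.37 ± 0.67 in those with Kir2.1. With Kir2.1 at P3 it belonged to Stau2, a protein of RNA transport granules (1.72, adjusted p = 0.608). The median of the 46 was -0.16 at P6 and 0.04 at P3, against -0.13 and -0.03 over all features.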

How the data were processed

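Per the file headers, the deposited scanner tables hold background-subtracted 1-colour intensity values from Agilent Feature Extraction 10.7.3.1. The deposited value table holds the same signal divided by each array's 75th percentile, a linear ratio, as a comparison with the scanner tables showed.

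Outlier spots were left out and spots of a probe averaged. Symbols came from RefSeq accessions (GRCm38.p6), which named 26546 of 28079 probes with an accession. Log2 signals were scaled to the 75th percentile of the 12103 probes that every one of the 16 arrays measured above background. Testing required signal above background on at least 4 arrays, and each gene was represented by its brightest probe. Limma 3.58.1 (R 4.3.3) fitted all arrays, with Benjamini-Hochberg adjustment over 21070 features. The test was tested on simulated data. The named genes were all members and, from the regulator and target lists, those called or among the 3 with the lowest p. Of the genes of like pattern, the first for each member is given. Members and lists were chosen with earlier results of these data known. The files lack the mean spot signal, so the normexp alternative used the median spot signal. The number of arrays limits the precision.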

Additional observations from a re-analysis of the deposited data

Results flagged for a closer look

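Of 36 groups of 4 pools tested for a pool far from the others (9 genes in 4 groups), 1 stood out, where chance gives about 1 in 20. It was Rbfox3 in P3 control cells, whose pool 3, at -6.82, lay above the other pools, the nearest of which was at -9.30. Pool 3 was the 1 P3 control pool in which the probe was well above background.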

How the results depend on the processing

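Each of the 54 results (9 genes in 6 comparisons) was recomputed under 10 other settings (9 for the mean of both ages and the interaction, which the 8 arrays of 1 age or treatment cannot give) and without each of the 16 arrays, and 0 called results changed sign. The count of members called with Kir2.1 at P6, 1 in the report, was 2 after normexp background correction (Elavl2, and Rbfox3 with -2.06 and adjusted p = 0.0284), and 0 with no filter on dim probes (Elavl2 adjusted p = 0.0636), with array weights (0.0836) and with only the 8 arrays of that age (0.21). It was 0 to 1 when 1 array was left out. The count with age in control cells, 1 in the report, was 0 with no filter (Rbfox3 adjusted p = 0.0597), with the mean of all probes of a gene (5.30, adjusted p = 0.0622) and with the replicate number as a block (0.0553), and 0 to 1 when 1 array was left out. The count with age in Kir2.1 cells, 1 in the report, was 0 with the replicate block (Elavl3 adjusted p = 0.0537) and with only the 8 Kir2.1 arrays (0.111), and 0 to 1 when 1 array was left out. The counts with Kir2.1 at P3, for the mean of both ages and for the interaction were 0 under these settings and left-out arrays. Same-numbered arrays did not deviate together (correlations -0.028 to 0.031, and 4 of 16 arrays closest to their own number), so the numbers were not taken as pairs. Slide as a block was not run, since each age lies on 1 slide. Over all features, the 370 called with Kir2.1 at P6 (182 higher, 188 lower) ranged from 20 with only the 8 arrays to 711 after normexp (246 higher, 465 lower), and numbered 376 (269 of them higher) when scaled over all probes. The cause of these shifts was not tested. Dim probes limit Rbfox1 and Rbfox3 most, with signal above background on 13 and 10 of 16 arrays.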

Other observations

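Among other RNA regulators, values with age that did not pass the threshold were 2.21 for Stau2 (adjusted p = 0.0767), 3.70 for the splicing factor Mbnl2 (adjusted p = 0.108) and -2.35 for Khdrbs2, which encodes the splicing factor SLM1 (adjusted p = 0.125), in control cells. Mbnl2 passed after normexp (2.55, adjusted p = 0.0326) and without P3 Kir2.1 pool 4 (adjusted p = 0.0401). In Kir2.1 cells they were -3.04 for Khdrbs2 (adjusted p = 0.0867, and called after normexp with -2.04 and adjusted p = 0.0138) and 1.55 for Srrm4, a neuronal microexon regulator (adjusted p = 0.159). Khdrbs2 had a lower mean at P6 than at P3 in both treatments, from -2.73 ± 0.35 to -5.08 ± 1.58 in control and from -1.84 ± 0.51 to -4.89 ± 1.5 in Kir2.1 pools (SD, n = 4).

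Over the 16 arrays, which share group, slide and pool, the genes most like each member among 10409 candidates were, as a description by Pearson r, Glt8d1 for Elavl2 (0.888), Mark2 for Elavl3 (0.846), Fam76b for Elavl1 (0.837) and Fam120a for Elavl4 (0.869). They were Smg9 for Rbfox1 (0.815), Pja2 for Rbfox2 (0.908) and Idua for Rbfox3 (0.868), and Rbak for Nova1 (0.795) and Unc5c for Nova2 (0.814).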
